A study of Homo sapiens with 10 samples.

Results

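The genes described here were the ATP-binding cassette (ABC) genes, taken as the protein-coding genes of the deposited table whose symbols ran from the ABCA to the ABCG subfamily and ended in a number. The rule used names only and no measured value, and it found 45 of the 46427 genes in the table, 19672 of which were protein-coding. All 45 were found by Gene identifier in the RefSeq annotation of GRCh38.p14, from which the positions below were taken. Another 17 table entries began with such a symbol but were pseudogenes, noncoding RNAs or the readthrough gene ABCF2-H2BE1, and they were not counted.

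Poly(A) RNA was sequenced in 10 libraries of H460 and A549, 2 established human lung cancer cell lines that had been given no gene edit or transgene. H460 was represented by 3 libraries of untreated cells grown flat (parental, or 2D), by 1 of cisplatin-resistant (CR), 2 of paclitaxel-resistant (PR) and 1 of doxorubicin-resistant (DR) cells, and by 1 of tumor spheroid (TS) cells. A549 was represented by 1 library of untreated 2D cells and 1 of TS cells. Resistant here meant surviving: cisplatin was given at 4 µM, paclitaxel at 5 nM and doxorubicin at 0.5 µM, each over 3 days, and the attached cells were collected after 3 days in fresh medium and a further plating. TS cells, which the labels call CTC after their culture method, grew in suspension with 20 ng/mL of each of 2 growth factors through at least 3 passages and met no drug. The paper lists a defined supplement but no serum for their medium, while 2D cells grew with fetal bovine serum. Suspension growth and medium therefore cannot be told apart. Whether libraries of a group came from separate cultures was not stated, so the p-values below measure only the spread between these libraries.

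ABC proteins bind and hydrolyse ATP, and most use that energy to move a substrate across a membrane. The ABCB1, ABCC and ABCG2 pumps of the plasma membrane are known for exporting anticancer drugs and their glutathione or glucuronide conjugates from tumor cells. Most ABCA proteins and ABCG1 move lipids and sterols, several ABCB transporters serve mitochondria or lysosomes, ABCD proteins serve peroxisomes and lysosomes, and the ABCE and ABCF proteins span no membrane and act on ribosomes.

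Between 59499787 and 89541774 reads per library were counted on genes, with a median of 71656787. More genes had at least 1 read in the CR, PR and DR libraries, 22720 to 26745, than in the 3 parental libraries, 21036 to 21603. Of 6 epithelial marker genes, 4 had an FPKM (fragments per kilobase of transcript, scaled for library depth) of at least 1 in each H460 library and 5 in A549 2D, whereas EPCAM and CDH1 stayed below that level in H460. None of 7 alveolar type II markers and none of 4 endothelial markers reached it in any library. The 6 fibroblast markers summed to 14.9 to 32.5 FPKM in the parental and 10.3 to 26.8 in the drug-resistant libraries. Between these groups edgeR called 3 of 5 tested, where it called 33.8% of all genes. COL1A1 was higher at a mean of 3.74 against 0.155 FPKM, DCN higher and COL3A1 lower at 4.84 against 20.5. The 6 leukocyte markers summed to 2.84 to 9.49 FPKM in the parental libraries and 11.7 to 17.5 in the CR, PR and DR libraries, nearly all of it CD14, with PTPRC at no more than 0.157 FPKM in any library, and to 47.9 FPKM in A549 TS cells, of which LYZ made up 37.8. The alveolar type II markers, although under 1 FPKM, summed to 0.0556 to 0.107 in the parental and 0.297 to 0.564 in the drug-resistant libraries. The part of these markers in the differences below was not tested.

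The promoters of 4 ABC genes called in drug-resistant cells are shown as the 250 bases before the transcription start in RefSeq, GRCh38.p14, read along the gene's strand. No window was held for ABCG1, ABCC3 or ABCC1, and the ABCC5 call held in only 1 of 7 fits that left out a library. ABCC2 was the highest member in parental H460 cells and higher in drug-resistant cells, ABCC5 was another pump that was higher, ABCB10 was the member that fell furthest, and ABCA1 was called in the drug and the cell line comparison. Capitals mark a GC box (GGGCGG) or a TATA box (TATAAA) found on either strand. The ABCC2 window is chr10:99782390-99782639 on the plus strand, the ABCC5 window chr3:184017885-184018134, the ABCB10 window chr1:229558708-229558957 and the ABCA1 window chr9:104928156-104928405, the last 3 on the minus strand.
ABCC2: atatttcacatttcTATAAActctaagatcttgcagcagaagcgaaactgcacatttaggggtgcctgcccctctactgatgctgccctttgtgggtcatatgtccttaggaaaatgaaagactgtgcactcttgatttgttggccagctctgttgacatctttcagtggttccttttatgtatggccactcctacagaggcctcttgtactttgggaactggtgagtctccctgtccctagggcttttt
ABCC5: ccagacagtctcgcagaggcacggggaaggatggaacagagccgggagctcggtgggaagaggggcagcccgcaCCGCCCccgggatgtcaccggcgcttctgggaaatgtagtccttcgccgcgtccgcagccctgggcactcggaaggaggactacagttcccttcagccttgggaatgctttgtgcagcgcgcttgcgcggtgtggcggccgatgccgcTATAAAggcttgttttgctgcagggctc
ABCB10: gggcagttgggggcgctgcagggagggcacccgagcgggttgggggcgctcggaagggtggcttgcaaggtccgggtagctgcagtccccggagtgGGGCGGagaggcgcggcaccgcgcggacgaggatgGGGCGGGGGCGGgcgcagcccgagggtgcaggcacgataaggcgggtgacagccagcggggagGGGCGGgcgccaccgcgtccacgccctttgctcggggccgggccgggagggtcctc
ABCA1: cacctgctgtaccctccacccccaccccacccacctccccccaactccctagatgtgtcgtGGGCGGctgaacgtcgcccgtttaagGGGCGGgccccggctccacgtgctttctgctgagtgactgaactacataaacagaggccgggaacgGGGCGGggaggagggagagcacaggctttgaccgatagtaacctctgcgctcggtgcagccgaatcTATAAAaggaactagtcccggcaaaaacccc
The GC box stood 4 times in the ABCB10 window, 3 times in that of ABCA1, once in that of ABCC5 and not in that of ABCC2. A TATA box lay 28 bases before the start of ABCC5, 31 bases before that of ABCA1 and 236 bases before that of ABCC2. RefSeq windows were held for 35 of the 45 genes, 53 windows in all, since some genes have several starts. A GC box was in 25 of these 53 windows, 47.2%, against 42.6% of all 35116 windows of this length, and a TATA box in 6, 11.3%, against 10.7%. CCAAT was in 11 windows, 20.8% against 32.0%, and the antioxidant response element core TGACNNNGC in 9, 17.0% against 10.9%, all searched on both strands.

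In parental H460 cells 24 of the 45 genes had a mean of at least 1.94 FPKM, a level per transcript length, and the other 21 stayed at or below a mean of 0.502 FPKM. ABCC2 (chr10:99782640-99852594), the apical exporter of conjugated organic anions also called MRP2, was highest at 57.7 ± 7.14 FPKM (SD, n = 3), and its lowest library lay above the highest library of the next gene. ABCE1, the ribosome recycling factor, followed at 39.1 ± 13.5 FPKM, and then came ABCF2 at 30.8 ± 10.4, ABCF1 at 26.2 ± 9.50 and ABCB10 at 23.5 ± 1.72. From ABCE1 down to ABCC4, the 16th gene in the order, each gene's range over the 3 libraries overlapped that of the next. The well-known drug pumps were spread along this order: ABCC1 was 7th at 18.7 ± 7.79 FPKM, ABCC3 9th at 14.5 ± 8.84, ABCG2 11th at 13.7 ± 4.04 and ABCB1 28th at 0.141 ± 0.101. Over all 10 libraries, 22 members were at 1 FPKM or more in every library and 16 were below it in every library, among them ABCB1, ABCB5, ABCB11, ABCA4, ABCA12, ABCC11, ABCG5 and ABCG8.

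The first question was how the cells that survived a drug differed from the parental cells. Drug-resistant H460 cells held more RNA of 6 multidrug efflux pumps, ABCC1, ABCC2, ABCC3, ABCC5, ABCC10 and ABCC11, and less of ABCC4. They held less of the mitochondrial transporter ABCB10 and of ABCE1, and more of 9 lipid and sterol transporters, ABCG1 and ABCA1 among them. The pumps best known from clinical resistance, ABCB1 and ABCG2, passed the test in neither direction. Of the 39 members tested in the 4 drug-resistant against the 3 parental libraries, 21 were called at an adjusted p under 0.05, 17 higher and 4 lower, by edgeR's quasi-likelihood test with Benjamini-Hochberg adjustment over all genes. In the same fit 33.8% of 18398 genes were called, 18.5% higher and 15.3% lower, and the median log2 fold change was 0.67 for the members tested and 0.06 for all genes. Of the 26 members with at least 1 FPKM in at least 2 of the 7 libraries, 13 were called, 9 higher and 4 lower. Without parental replicate 1 the fit called 12 members, 28.6% of those tested against 24.3% of all genes, and without parental replicate 2 it called 11, 26.8% against 21.5%, so that the members then lay close to the share of all genes. With upper-quartile scaling the median of all genes lay at 0.23, 67.5% of all called genes were higher rather than 54.6%, and 23 members were called, 20 higher and 3 lower. In bulk RNA, fewer cells with a gene on and less RNA per cell cannot be told apart.

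**Figure D1:**
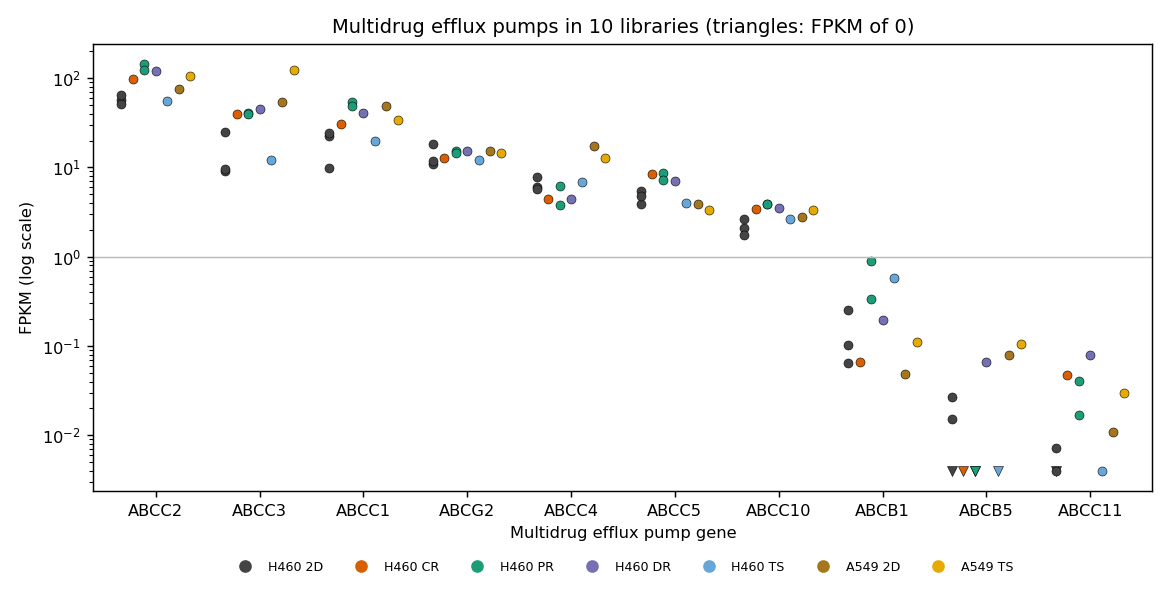
FPKM on a log scale (vertical axis) of the 10 multidrug efflux pumps (horizontal axis), with 1 point per library colored by group, triangles for values of 0 drawn at the foot of the plot and a grey line at 1 FPKM. For ABCC2, ABCC3, ABCC1, ABCC5 and ABCC10 the CR, PR and DR points lie above all parental points, ABCG2 points lie together between 11.0 and 18.3 FPKM, and ABCB1, ABCB5 and ABCC11 lie below 1 FPKM in every library.

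ABCC2 stood at 57.4, 50.6 and 64.9 FPKM in the parental libraries, 97.7 in CR, 143 and 123 in PR and 121 in DR. The 4 drug-resistant libraries all lay above the 3 parental ones, with CR the lowest of the 4. The log2 fold change was 0.93 ± 0.20 (SE), or 1.91-fold (adjusted p = 0.00658, edgeR), and ABCC2 made up 23.2% to 28.8% of the summed FPKM of all members in the drug-resistant libraries against 15.3% to 18.2% in the parental ones. ABCC3 (chr17:50634881-50692253), the basolateral exporter of organic anions also called MRP3, stood at 9.13, 9.70 and 24.7 FPKM in the parental libraries, 39.5 in CR, 40.6 and 39.7 in PR and 45.1 in DR. Its drug-resistant libraries lay close together and above every parental library, while parental replicate 3 lay well above the other two. The log2 fold change was 1.37 ± 0.36 (adjusted p = 0.0159, edgeR), and without parental replicate 1 or 2 it missed the threshold, with adjusted p up to 0.0703 over the alternatives.

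ABCC1 (chr16:15949143-16143053), or MRP1, which exports glutathione conjugates and anthracyclines, stood at 22.4, 9.76 and 24.0 FPKM in the parental libraries, 30.4 in CR, 53.7 and 48.9 in PR and 40.2 in DR. Both PR libraries were highest, DR followed, and CR was nearest to the parental range. The log2 fold change was 1.05 ± 0.32 (adjusted p = 0.0297, edgeR), and the call was lost without parental replicate 1 or 2 or either PR library, with adjusted p up to 0.0650. ABCC5, or MRP5, which exports cyclic nucleotides, stood at 5.40, 3.91 and 4.79 FPKM in the parental libraries, 8.49 in CR, 8.68 and 7.27 in PR and 7.12 in DR. ABCC10, or MRP7, which can carry taxanes, stood at 2.07, 1.75 and 2.62 FPKM in the parental libraries, 3.41 in CR, 3.91 and 3.93 in PR and 3.52 in DR. Neither gene's groups overlapped, with log2 fold changes of 0.58 ± 0.18 and 0.66 ± 0.21 (adjusted p = 0.0293 and 0.0324, edgeR), and each call held in only 1 of the 7 fits that left out a library, without parental replicate 1 for ABCC5 and without parental replicate 3 for ABCC10.

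ABCC4, or MRP4, an exporter of cyclic nucleotides and prostanoids, was the pump that fell. It stood at 7.75, 6.02 and 5.79 FPKM in the parental libraries, 4.44 in CR, 6.20 and 3.76 in PR and 4.42 in DR, so that PR replicate 1 lay within the parental range. The log2 fold change was -0.61 ± 0.21 (adjusted p = 0.0419, edgeR), and the call held in 1 of 7 fits that left out a library and in 1 of 6 other alternatives. ABCC11, or MRP8, was called higher (adjusted p = 0.0130, edgeR) from 5, 0 and 2 reads in the parental libraries and 33, 11, 22 and 60 in CR, PR replicates 1 and 2 and DR. These counts are at most 0.0802 FPKM.

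ABCB1 (chr7:87503017-87713295), or P-glycoprotein, the exporter of taxanes and anthracyclines, had 112, 40 and 30 reads in the parental libraries, which is 0.255, 0.103 and 0.0646 FPKM. It had 31 reads (0.0659 FPKM) in CR, 393 and 116 (0.892 and 0.332 FPKM) in PR and 103 (0.196 FPKM) in DR. The groups overlapped: only the 2 PR libraries lay above every parental library, and CR lay within their range. The log2 fold change of 1.24 had a 95% interval from -0.42 to 2.90 (adjusted p = 0.222, edgeR). ABCG2 (chr4:88090264-88231626), the breast cancer resistance protein, stood at 11.0, 18.3 and 11.7 FPKM in the parental libraries, 12.7 in CR, 15.3 and 14.5 in PR and 15.2 in DR. Every drug-resistant value lay within the parental range, and the log2 fold change of -0.02 had an interval from -0.44 to 0.39 (adjusted p = 0.932, edgeR). Its sign turned under other scalings, but no alternative called it. ABCB5 had at most 27 reads in any of these 7 libraries and was not tested.

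**Figure D2:**
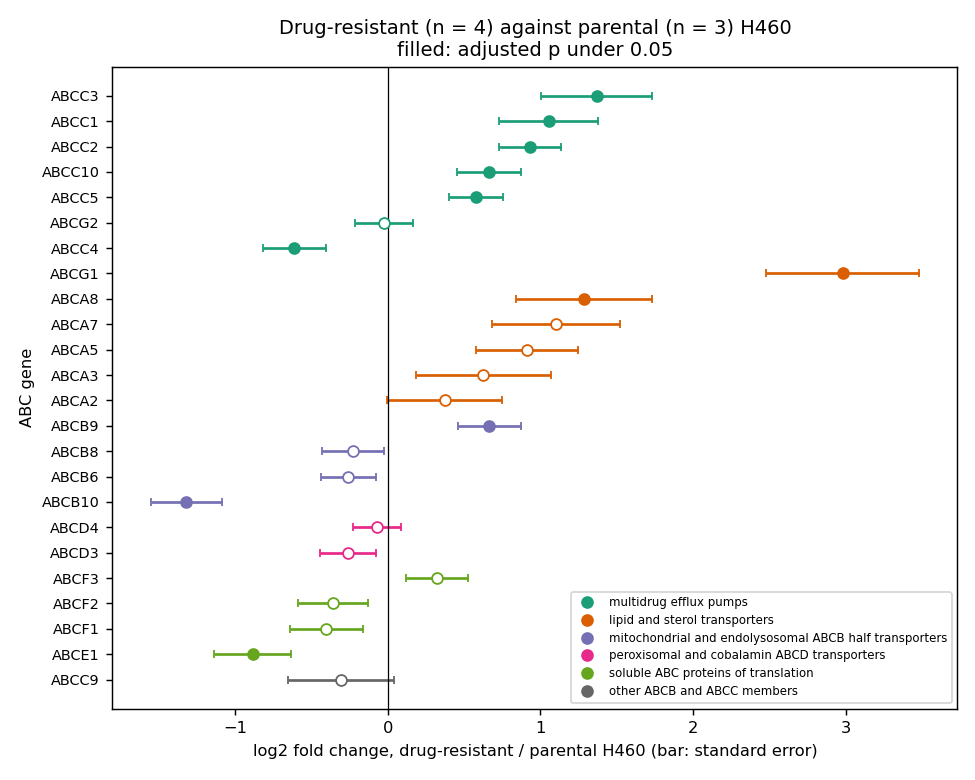
Log2 fold change of drug-resistant (n = 4) over parental (n = 3) H460 cells from the edgeR fit (horizontal axis, bars of 1 standard error) for 24 members with at least 1 FPKM in at least 2 of the 7 libraries (vertical axis), colored by role and filled where the adjusted p was under 0.05. The 8 filled points on the right run from ABCC5 at 0.58 to ABCG1 at 2.98, and the 3 filled points on the left are ABCC4, ABCE1 and ABCB10.

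Among the 17 lipid and sterol transporters 15 were tested and 9 were called, all higher, where 18.5% of all genes were called higher and 15.3% lower. ABCG1 (chr21:42199689-42297244), which passes cholesterol to high-density lipoprotein, had the largest change of those above 1 FPKM. It stood at 0.119, 0.333 and 0.562 FPKM in the parental libraries, 2.84 in CR, 2.81 and 1.92 in PR and 2.95 in DR. No drug-resistant library came near the parental range, and the log2 fold change was 2.98 ± 0.50 (adjusted p = 0.00180, edgeR). ABCA1 (chr9:104781006-104928155), which loads cholesterol onto apolipoprotein A-I, stood at 0.185, 0.120 and 0.235 FPKM in the parental libraries, 0.442 in CR, 1.12 and 0.739 in PR and 0.598 in DR, with all 4 above the parental range and both PR libraries highest (log2 fold change 1.68 ± 0.38, adjusted p = 0.00815, edgeR). ABCA8, a member of the ABCA cluster on chromosome 17 linked to sterol efflux, stood at 1.66, 6.06 and 6.29 FPKM in the parental libraries, 16.4 in CR, 13.1 and 6.59 in PR and 11.1 in DR. PR replicate 2 was only just above the highest parental library, and the log2 fold change of 1.28 ± 0.45 (adjusted p = 0.0471, edgeR) was lost in 5 of 7 fits that left out a library.

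The other 6 of these 9 genes were below 1 FPKM in every library. ABCA4, the retinoid transporter of photoreceptors, had no read in any parental library and 19, 50, 77 and 47 reads in CR, PR replicates 1 and 2 and DR, at least 45.2-fold higher when 3 reads over the parental group are taken as the floor. ABCA9, a neighbour of ABCA8, likewise had none and then 27, 57, 89 and 37, at least 49.2-fold higher. ABCA12, the keratinocyte lipid transporter, had 12, 0 and 0 reads in the parental libraries and 54, 224, 113 and 163 in the same order. ABCA13, ABCA6 and ABCG8, which exports plant sterols together with ABCG5, were called higher from at most 0.0220 FPKM in parental cells. The ABCA6 call held in 3 of 7 fits that left out a library and the ABCG8 call in 5 of 7. The calls of these 6 genes went with the larger number of genes detected in the drug-resistant libraries: of 5189 tested genes under 1 FPKM in all 7 libraries, 27.0% were called higher and 3.14% lower, against 7 of 12 such ABC genes higher and none lower. Among 13209 genes above that level 15.1% were called higher and 20.1% lower, against 10 and 4 of 27 ABC genes. What part the larger number of detected genes had in these calls was not tested. ABCA2, the highest member of this group over all libraries, stood at 6.20 to 19.9 FPKM in parental and 13.0 to 18.6 in drug-resistant cells and was not called (adjusted p = 0.472, edgeR).

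Among the ABCB transporters of mitochondria and lysosomes, ABCB10 (chr1:229516582-229558707), an inner-membrane protein of mitochondria needed for heme synthesis in red cell precursors, stood at 25.1, 23.8 and 21.7 FPKM in the parental libraries, 12.5 in CR, 9.93 and 6.64 in PR and 10.5 in DR. The groups were far apart, and the log2 fold change of -1.32 ± 0.23, or 2.50-fold lower, was called under every alternative tried (adjusted p = 0.00232, at most 0.0115, edgeR). ABCB9, a lysosomal peptide transporter, stood at 1.87 to 2.03 FPKM in the parental and 2.50 to 3.79 FPKM in the drug-resistant libraries (log2 fold change 0.67 ± 0.20, adjusted p = 0.0289, edgeR), and the call held in only 2 of 7 fits that left out a library, with adjusted p up to 0.104 over the alternatives. ABCB6, a porphyrin transporter and the highest of these over all libraries, stood at 18.2 to 24.3 FPKM against 18.3 to 20.2 and was not called, nor was ABCB8 (adjusted p = 0.284 and 0.410, edgeR).

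ABCD3, a peroxisomal transporter and the highest ABCD gene, stood at 11.9 to 17.5 FPKM against 12.2 to 14.8, and the cobalamin transporter ABCD4 at 7.97 to 9.27 against 8.59 to 9.88, with neither called (adjusted p = 0.292 and 0.746, edgeR). Of the 4 soluble proteins of translation, ABCE1 was called. It stood at 50.3, 42.8 and 24.1 FPKM in the parental libraries, 19.1 in CR, 29.0 and 18.6 in PR and 24.1 in DR, so that parental replicate 3 lay among the drug-resistant libraries (log2 fold change -0.89 ± 0.25, adjusted p = 0.0222, edgeR). The ABCE1 call was lost without parental replicate 1 or 2 or PR replicate 2, with adjusted p up to 0.0901 over the alternatives. ABCF1, ABCF2 and ABCF3 were not called, and ABCF2 overlaps the readthrough gene ABCF2-H2BE1, at 0.297 to 7.82 FPKM, so its reads are uncertain. None of the 3 tested members of the remaining group, ABCB11, ABCC6 and ABCC9, was called by edgeR, and 1 of them, ABCB11, had an unadjusted p under 0.05 (adjusted p = 0.0546).

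**Figure D3:**
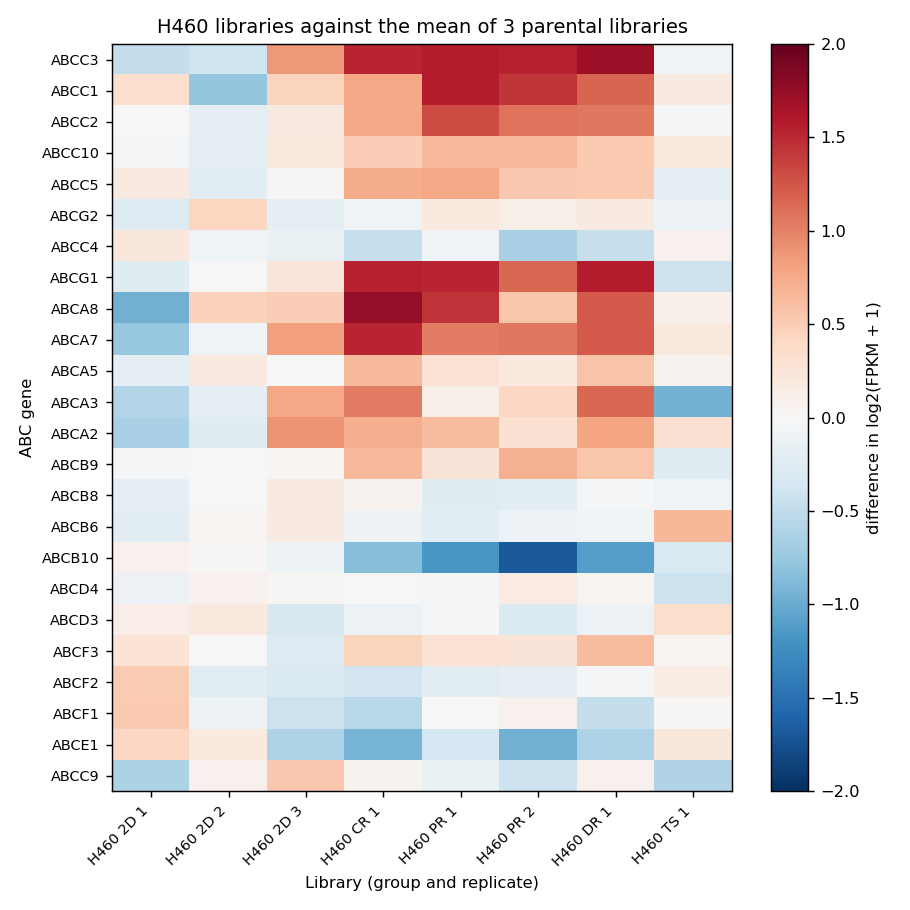
Difference in log2(FPKM + 1) of each H460 library (horizontal axis) from the mean of the 3 parental libraries for 24 members with at least 1 FPKM in at least 2 of the 7 parental and drug-resistant libraries (vertical axis, grouped by role), red where higher and blue where lower. Values run from -1.68 for ABCB10 in PR replicate 2 to 1.76 for ABCA8 in CR, and the TS column stays within 1 of the parental mean.

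In FPKM, all 4 drug-resistant libraries lay above all 3 parental libraries for 19 members and below them for 2, whereas the groups of 35.4% of all 22464 genes did not overlap, 23.9% higher and 11.5% lower. The 19 were the 17 called higher, with ABCA5 and ABCA7 (adjusted p = 0.0565 and 0.0659, edgeR). Library names came in a form with and a form without a hyphen, and one form held 1 drug-resistant and the other 1 parental library. All 21 called members differed in the same direction within each form. They had been called from these same libraries, so this agreement is no separate check on the form. With the form as a covariate 14 of 42 members were called, 12 higher and 2 lower, 33.3% against 25.0% of all genes, and the calls of ABCA6, ABCA8, ABCB9, ABCC4, ABCC11, ABCE1 and ABCG8 were lost. Summed over the 10 efflux pumps, FPKM was 100 to 139 in the parental libraries, 197 in CR, 272 and 241 in PR and 237 in DR.

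The members were next taken by drug. CR and DR had 1 library each and allowed no test of their own, so a difference in log2(FPKM + 1) of more than 2-fold from the parental mean was counted instead, over all 45 members. The 16 members below 1 FPKM in every library, ABCB1 among them, could not pass this limit, nor could other genes that low, so shares are also given over the 29 members and 14357 genes that reached 1 FPKM in any library. In CR 5 members passed, all higher (ABCA3, ABCA7, ABCA8, ABCC3 and ABCG1), against 7.26% of all genes, 3.29% higher and 3.98% lower, or 17.2% against 11.4% of those that reached 1 FPKM. In the PR mean 8 passed, 7 higher (ABCA7, ABCA8, ABCC1, ABCC2, ABCC3 and ABCG1 among them) and ABCB10 lower, against 7.81%, 4.5% higher and 3.32% lower, or 27.6% against 12.2%. In DR 9 passed, the same as in PR with ABCA3 added, against 6.44%, 3.24% higher and 3.2% lower, or 31.0% against 10.1%. ABCC2 and ABCC1 thus passed in PR and DR, at 1.19 and 1.06 for ABCC2 and 1.50 and 1.16 for ABCC1 on the log2 scale, and in CR they stood at 0.76 and 0.77. ABCC3 passed in all 3, at 1.53 in CR, 1.55 in PR and 1.71 in DR. ABCC5 and ABCC10 lay between 0.50 and 0.74 with every drug, and ABCC4 between -0.46 and -0.35. ABCG2 lay between -0.06 and 0.18, and ABCB1, under 1 FPKM, was at -0.09 in CR, 0.48 in PR and 0.07 in DR. With parental replicate 3 alone as the control, which was the highest of the 3 for ABCC3 and ABCC2, the counts were 2 in CR, 4 in PR and 1 in DR. These were 6.9%, 13.8% and 3.45% of the members that reached 1 FPKM, against 9.57%, 11.0% and 9.31% of such genes, so with that control the members did not stand above all genes in CR or DR.

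In a fit with PR as one group and CR with DR as another, 14 of 42 members were called in PR against parental cells, 12 higher and 2 lower, where 32.8% of 19770 genes were called, 19.4% higher and 13.3% lower. In CR with DR 15 of 42 were called, 13 higher and 2 lower, where 21.7% were called, 12.5% higher and 9.22% lower. Both comparisons used the same 3 parental libraries. Among the pumps ABCC2 was called in each, at 0.97 ± 0.22 for PR and 0.87 ± 0.22 for CR with DR on the log2 scale (adjusted p = 0.0111 and 0.0244, edgeR), as was ABCC11. ABCC1 was called in PR at 1.21 ± 0.37 but not in CR with DR at 0.86 ± 0.37 (adjusted p = 0.0335 and 0.126, edgeR), and ABCC3 in CR with DR at 1.48 ± 0.42 but not in PR at 1.23 ± 0.42 (adjusted p = 0.0345 and 0.0507, edgeR). ABCB1 just missed the threshold in PR at 1.92 ± 0.67 (adjusted p = 0.0524, edgeR), where it was called in 7 of 13 alternatives with adjusted p from 0.00352 to 0.414, and it stood at -0.14 in CR with DR (adjusted p = 0.905, edgeR). These counts rest on single libraries, as do those over all genes. Without PR replicate 1 or 2 the PR count was 8 or 6, 18.2% or 13.3% of members against 15.3% or 7.68% of all genes. Without CR, DR or parental replicate 2 the count for CR with DR was 9, 3 or 9, or 20%, 6.98% and 22.0% of members against 8.48%, 6.29% and 15.1% of all genes.

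The difference between the drugs was itself tested, and none of the 42 members was called for PR against CR with DR, where 0.0% of the 19770 genes were called by edgeR. DESeq2 and limma called none of the members either, and 4 had an unadjusted p under 0.05, as had 2479 of all genes. For ABCC2 the log2 difference of 0.10 had an interval from -0.46 to 0.66, for ABCC1 0.35 from -0.57 to 1.27, and for ABCC3 -0.25 from -1.31 to 0.80, so that a 2-fold difference between drugs lay inside the interval for ABCC1 and ABCC3. ABCB1 had the largest difference of the 4, at 2.06 ± 0.76 on the log2 scale with an interval from 0.35 to 3.77 (adjusted p = 0.313, edgeR). It was called by edgeR when no filter on low counts was used (adjusted p = 0.0484), where 1.59% of all genes were called. The others were ABCA3 at -1.13, ABCA5 at -0.86 and ABCB10 at -0.61. For ABCB10 this places PR, at 9.93 and 6.64 FPKM, below CR and DR, at 12.5 and 10.5.

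The next comparison was between the cell lines. A549 cells held more ABCC3 and ABCC4 than H460 cells and far more ABCA1, less ABCB10, and no detected ABCC9. In a fit of 2 A549 and 4 H460 libraries, 2D and TS, with culture as a covariate, 10 of 38 members were called, 7 higher in A549 and 3 lower, where 23.9% of 18372 genes were called, 14.4% higher and 9.42% lower.

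**Figure D4:**
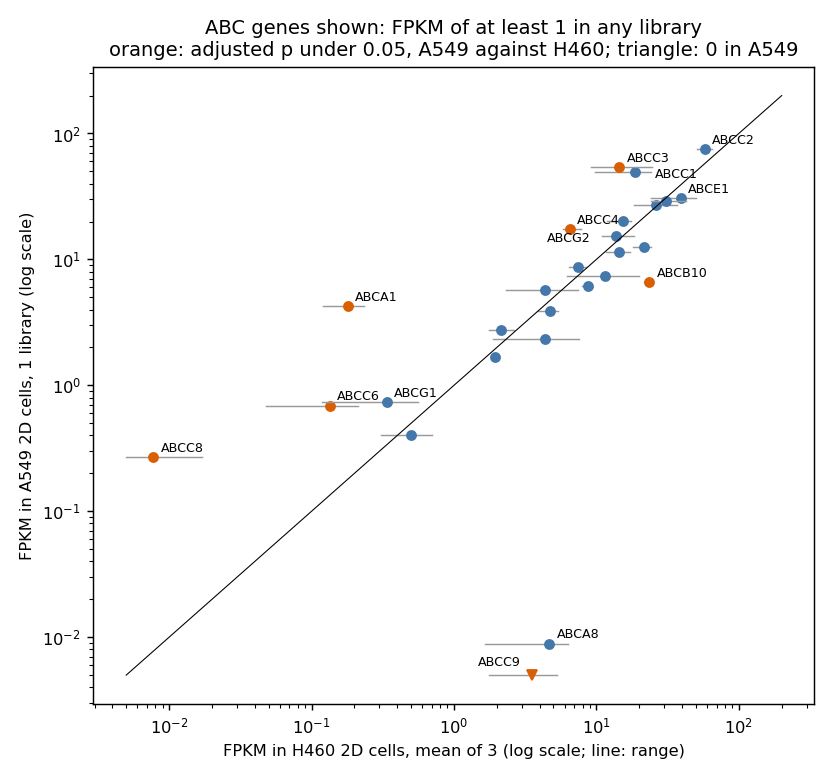
FPKM in A549 2D cells (vertical axis, 1 library) against the mean of the 3 H460 2D libraries (horizontal axis, grey bars for their range) on log scales, for most members with at least 1 FPKM in any library, in orange where the adjusted p between the lines was under 0.05 in the fit that also held the TS libraries. The black line marks equal levels and values under 0.005, ABCC9 in A549 and the low end of ABCC8 in H460, are drawn at 0.005. ABCA1 lies far above the line and ABCB10, ABCA8 and ABCC9 lie below it.

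Of the efflux pumps, 2 of 9 tested were called. ABCC3 stood at 54.3 and 122 FPKM in the 2D and TS cells of A549, against 9.13 to 24.7 in the 2D and 12.2 in the TS cells of H460. Both A549 libraries lay above all 4 H460 libraries of the fit, and the log2 fold change was 2.48 ± 0.59 (adjusted p = 0.0244, edgeR). The call held in 7 of 11 alternatives and was lost without parental replicate 1 or 2, H460 TS or A549 TS, with adjusted p up to 0.0655. In A549 TS cells ABCC3 passed ABCC2 as the highest member, the only library of the 10 in which ABCC2 was not first. ABCC4 stood at 17.3 and 12.7 FPKM in A549 2D and TS cells against 5.79 to 7.75 and 6.94 in H460, a log2 fold change of 1.19 ± 0.23 (adjusted p = 0.0121, edgeR). ABCC1 stood at 49.2 and 33.5 FPKM in A549 against 9.76 to 24.0 and 19.8 in H460, and ABCC2 at 74.9 and 107 against 50.6 to 64.9 and 56.1. In both cases the A549 libraries were the higher ones, but neither gene passed (adjusted p = 0.0880 and 0.161, edgeR), and the intervals of the log2 difference ran from 0.17 to 2.09 and from -0.05 to 1.29. ABCG2 stood at 15.3 and 14.6 FPKM in A549, within the H460 2D range, ABCC5 at 3.92 and 3.35 and ABCC10 at 2.76 and 3.32. ABCB1 was at 0.0483 and 0.112 FPKM in A549 against 0.0646 to 0.255 and 0.573 in H460 (adjusted p = 0.0972, edgeR), ABCB5 at 0.0802 and 0.104 against at most 0.0268, and ABCC11 at no more than 0.0295 FPKM in the 2D and TS libraries of either line.

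ABCA1 stood at 4.26 and 0.520 FPKM in the 2D and TS cells of A549, against 0.120 to 0.235 in the 2D and 0.0525 in the TS cells of H460, and the difference between the lines was 4.03 ± 0.40 on the log2 scale (adjusted p = 0.00113, edgeR). ABCC9, the regulatory subunit of potassium channels called SUR2, stood at 1.78 to 5.29 FPKM in the H460 2D and drug-resistant libraries and 1.84 in H460 TS cells, and it had no read in either A549 library, at least 1471-fold lower with 3 reads over the A549 libraries as the floor. Its relative ABCC8, or SUR1, went the other way, with 123 and 526 reads (0.268 and 1.23 FPKM) in A549 2D and TS cells against 0 to 9 in the H460 2D libraries (log2 fold change 5.46 ± 0.89, adjusted p = 0.00671, edgeR). ABCC6 was higher in A549 at 0.689 and 1.66 FPKM against 0.0477 to 0.212 (adjusted p = 0.0266, edgeR), but it shares sequence with the pseudogenes ABCC6P1 and ABCC6P2, so its reads are uncertain. ABCA12 was also higher, and so was ABCC12, at 20 and 18 reads against none in H460 2D or TS cells, at least 25.9-fold. ABCB10 stood at 6.57 and 7.36 FPKM in A549 against 21.7 to 25.1 and 18.7 in H460 (log2 fold change -1.65 ± 0.25, adjusted p = 0.00469, edgeR). The drug-resistant H460 libraries, at 6.64 to 12.5 FPKM of ABCB10, were nearer to A549 than to parental H460 cells. ABCA8 was at 0.00891 and 1.15 FPKM in the 2D and TS cells of A549 against 1.66 to 6.29 in H460 2D cells, and was not called. The calls of ABCA1, ABCC8 and ABCC9 between the lines held under every alternative that gave a value. Those of ABCC4, ABCB10, ABCA12 and ABCC12 were lost without A549 2D, and that of ABCC12 held in only 6 of 9 alternatives. The ABCC6 call was lost without A549 TS and without parental replicate 3 (adjusted p = 0.0639 for the latter, edgeR).

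The last comparison was between TS and 2D cells, which differed in medium as well as in growth form. It had 1 TS library per line. With the cell line as a covariate none of 38 members was called by edgeR, where 0.191% of 18372 genes were called. In that fit 6 members had an unadjusted p under 0.05, as had 1363 of all genes, and limma called no member. DESeq2 called 2, ABCA1 at -2.25 and ABCB6 at 0.96 on the log2 scale (adjusted p = 0.000423 and 0.0441), where it called 2.92% of all genes. ABCA1 stood at 4.26 FPKM in A549 2D against 0.520 in A549 TS cells, and it lay at 0.0525 in H460 TS cells, below the parental 0.120 to 0.235. ABCB6 was at 34.6 FPKM in H460 TS cells against 18.2 to 24.3 in 2D cells, and at 31.3 against 12.5 in A549. Among the pumps in H460 TS cells, ABCC2 at 56.1 FPKM, ABCC3 at 12.2, ABCC1 at 19.8 and ABCG2 at 12.2 all lay within the parental range, as did ABCC4 and ABCC5. ABCB1, at 0.573 FPKM, and ABCC10, at 2.63, lay above it, ABCC10 barely so.

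By the 2-fold count no member passed in H460 TS cells, against 2.15% of all genes, and 7 passed in A549 TS against A549 2D cells, against 5.46%, 3.76% higher and 1.7% lower, or 24.1% against 8.54% of those that reached 1 FPKM. Those higher in A549 TS cells were ABCA3, ABCA7, ABCA8, ABCB6, ABCC3 and ABCG1, and ABCA1 was lower. ABCC3 differed by 1.16 on the log2(FPKM + 1) scale there and by -0.09 in H460. ABCG1 was at 0.738 and 2.97 FPKM in A549 2D and TS cells and without a read in H460 TS cells, and ABCA3, the surfactant lipid transporter, was at 5.67 and 14.1 in A549 and at 1.58 in H460 TS cells, below the parental 2.31 to 7.46. When the difference between the lines in their TS response was tested, with a spread taken from the 3 parental libraries alone, none of 41 members was called by edgeR, where 0.436% of 19941 genes were called. An unadjusted p under 0.05 was found for ABCA3, ABCG1 and ABCA8, and for 1628 of all genes. DESeq2 called ABCG1 and ABCA8 (adjusted p = 0.000586 and 9.31e-06), where it called 2.70% of all genes, and limma called no member. Without parental replicate 1 edgeR called these 3 as well, and without parental replicate 2 it called ABCG1 and ABCA8.

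Of the ABC genes known by other symbols, TAP1, a subunit of the peptide transporter for antigen presentation, was higher in drug-resistant cells at 25.0 to 44.6 FPKM against 15.6 to 18.7, CFTR was called higher from no read in parental cells to at most 0.0486 FPKM, and TAP2 was not called (adjusted p = 0.0155, 0.0280 and 0.0612, edgeR). Of 13 tested genes for other routes of platinum, anthracycline and organic cation transport, 3 were called, all higher, among them MVP, the major vault protein, at 36.1 to 57.8 against 3.74 to 9.81 FPKM, and the carnitine carrier SLC22A5. Of 17 tested genes of glutathione synthesis and conjugation, whose products the ABCC pumps can carry, 4 were called, GGT1 higher and GCLM, GSTM1 and GSTM4 lower. Of 15 tested transcriptional regulators of ABC genes, 6 were called, NR1H2, NR1I2, PPARA and RXRB higher and YBX1 and SREBF2 lower. In the fit that gave these counts 33.8% of all 18398 genes were called, 18.5% higher and 15.3% lower. Whether any of these lists differed from that share was not tested. NR1H2, an oxysterol receptor known to act on ABCA1 and ABCG1, stood at 17.9 to 21.7 FPKM in drug-resistant against 9.46 to 11.2 in parental cells. NR1H3, of the same list, stood at 1.66 to 2.77 against 1.97 to 3.15 FPKM and was not called (adjusted p = 0.412, edgeR). NR1I2, the xenobiotic receptor PXR, stood at no more than 0.0815 FPKM. What part these receptors had in the changes of ABC genes was not tested. Between the lines 3 of 14 tested regulators were called, all higher in A549, where 23.9% of all genes were called. PPARG was at 20.8 and 18.9 FPKM in A549 against 1.99 to 3.73 in H460 2D cells, and the others were NR1H3 and NR1H2.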

How the data were processed

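Sequencing used an unstranded poly(A) kit on HiSeq instruments. Per the labels, the submitters' processing notes name bcl2fastq 1.8.4, Trimmomatic, HISAT2 2.1.0 and StringTie 2.1.3b with the build GRCh38, in no stated role. How reads shared between related genes were counted is not given in the sources used here. The authors deposited, for each gene and library, whole-number read counts without normalization. The authors also deposited FPKM, in which the reads of a gene are scaled by its transcript length and by library depth. The TPM deposited by the authors hold the same quantity brought to a fixed total, and no result uses them.

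Counts were tested with edgeR 4.0.16 (TMM scaling, filterByExpr, quasi-likelihood test) in R 4.3.3 over all genes, calling genes at a Benjamini-Hochberg adjusted p under 0.05. Standard errors were taken from the F statistic, and intervals are 95% intervals. One fit held 4 drug-resistant and 3 parental libraries, one split the former into PR and CR with DR, and one held the TS and 2D libraries of both lines. Single libraries were compared by more than 2-fold in log2(FPKM + 1) over genes that passed the count filter. Alternatives were DESeq2 1.42.0, limma 3.58.1 on log2(FPKM + 1) and log2(FPKM + 0.1) with FPKM of at least 1 in at least 2 libraries, upper-quartile scaling, no count filter, the form of the library name as a covariate, a replicate block and leaving out each library. Leaving out the CR, DR, TS or A549 libraries, and restricting the members by FPKM, were chosen after seeing the data. The fits were tested on simulated data. Some members and listed genes are not reported here, although they are in the counts. Otherwise, named are all efflux pumps, the called members and the highest member of each role. For other lists most called genes are named for drug-resistant against parental cells, and few for the other comparisons. The members, lists and tests were chosen with earlier results of these data known. Replicates differed by more than counting error, with a chi-square per gene of 80.7 to 338. Figures were drawn with matplotlib 3.10.9.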

Additional observations from a re-analysis of the deposited data

Results flagged for a closer look

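ABCG1 in PR replicate 2 stood at 1.92 FPKM, the lowest of the 4 drug-resistant libraries, whose other values were 2.81, 2.84 and 2.95. In log2(FPKM + 1) its gap to the nearest of them was 0.881 of the whole range, above Dixon's limit for 4 values. That limit assumes values of a single group, whereas these libraries came from different drugs. The values of 23 members were examined this way, and chance alone passes that limit for about 1 in 20. The library still lay above every parental library for ABCG1.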

How the results depend on the processing

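Over 62 values of single genes and 741 alternative values, 302 of those with a library left out kept their direction and side of the threshold and 120 kept only the direction, against 285 and 29 for other settings. The 5 values that changed sign were all of ABCG2 in drug-resistant cells, at 0.14 with upper-quartile scaling, 0.11 with limma at either pseudocount, 0.17 without parental replicate 2 and 0.010 without PR replicate 2, with a range of -0.18 to 0.17 over left-out libraries and no call. ABCA1, ABCA4, ABCA9, ABCA12, ABCA13, ABCB10, ABCC2 and ABCG1 were called in drug-resistant cells under every alternative that gave a value.

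With limma, which tested only genes that reached 1 FPKM in 2 or more libraries, 12 (pseudocount 0.1) and 13 (pseudocount 1) members were called in drug-resistant cells, 9 and 9 in PR against parental cells and 6 and 6 between the lines, where limma's calls were 2 higher and 4 lower against 7 and 3 by edgeR. In drug-resistant cells these were 46.15% and 50% of members tested, against 33.22% and 33.05% of all genes. In PR they were 34.62% at either pseudocount, against 28.33% and 29.47%. Between the lines they were 25%, against 23.54% and 23.73%, so the members there lay close to the share of all genes. The same FPKM limit on the main fit left 13 in drug-resistant cells. DESeq2 called 2 for TS against 2D cells, 5.26% of members tested against 2.92% of all genes. It called 2 for the difference in TS response, 4.88% against 2.70%. Without a count filter edgeR called 1 member for PR against CR with DR, 2.22% against 1.59%. A pseudocount of 0.1 let more members pass 2-fold in PR, H460 TS and A549 TS cells. The share of all genes at that pseudocount was not counted, so the members cannot be set against it. The causes were not tested.

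Leaving out each library in turn gave 11 to 21 calls in drug-resistant cells, 26.8% to 50% of members tested against 21.5% to 33.6% of all genes. Where PR kept 2 libraries it had 10 to 19 calls, 24.4% to 45.2% against 25.05% to 39.8%. Where CR and DR were both kept they had 9 to 21, 22.0% to 50% against 14.7% to 28.8%. With a parental library left out, 7 to 9 members were called between the lines, 18.4% to 23.7% against 14.5% to 21.7% of all genes. No member was then called between these drugs or for TS against 2D cells, where at most 0.335% and 0.193% of all genes were called. The difference in TS response, with 1 library in each group but the parental one, is left out of these ranges. Each parental library alone as the control gave 2 to 9 members past 2-fold in CR, 4 to 10 in PR, 1 to 10 in DR and 0 to 2 in H460 TS cells. Of all genes, 6.12% to 11.2%, 7.01% to 10.5%, 5.95% to 9.33% and 2.39% to 3.89% passed in the same order. Where a group was left with 1 library, that library was assumed to vary like the others. PR and parental replicates 1 and 2 share numbers, but their deviations correlated at 0.144 over 2 pairs and nothing states a pairing. With a replicate block the 4 libraries gave 19 calls, against 18 without it. These were 47.5% and 45% of members tested, against 35.33% and 34.73% of all genes. What depth and the number of libraries limited was not tested.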
